A study of Homo sapiens with 2 samples.

Results

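The genes described here encode the proteins of the mitochondrial ribosome. They were taken by symbol: protein-coding genes of GENCODE 44 on chromosomes 1-22 whose symbol begins with MRPL or MRPS and a number. There were 78, of 18191 protein-coding genes with a MANE Select transcript, the one reference transcript per gene agreed by 2 annotation groups. Of the 78, 49 carry the MRPL prefix (large subunit) and 29 the MRPS prefix (small subunit), and they lie on 21 chromosomes. The choice used names only and no measured value.

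Nucleosomes were mapped in ARPE-19, an immortal human line that arose from the retinal pigment epithelium, grown in normal culture and sampled in interphase. Lysed cells were treated with micrococcal nuclease for 5 min at 37 °C, which destroys DNA not covered by nucleosomes, and fragments of 150 bp were sequenced. The 2 samples are batches of this 1 condition. A single list of 1-bp positions was deposited, with no height and no sample column. Whether it draws on both batches is not stated. No spread between batches could be measured, and the read depth is unknown. A position in the list is called a nucleosome position below. Its absence from a place means only that none was listed there.

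Mitochondrial ribosomes make the few proteins encoded by mitochondrial DNA, all of them subunits of the respiratory chain and ATP synthase. Their own proteins are encoded in the nucleus, translated in the cytosol and imported. Growing cells transcribe these genes steadily, many from CpG islands, which are promoters rich in CpG dinucleotides, and many from a promoter shared with a gene on the opposite strand. At active promoters of this kind the DNA just before the start is usually free of nucleosomes, and the first nucleosome downstream, called +1, is usually fixed in place. Gene activity was not measured here, and the identity of the cells could not be checked from marker genes in a list of nucleosome positions.

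The pair of divergent promoters shown first had no listed position between the starts and a +1 position on either side, a pattern found at a minority of the genes. They are the sequences between the start of MRPL50 (chromosome 9, transcript 101387633 to 101398618, minus strand) and that of ZNF189, a zinc finger gene, and between the start of MRPS12 (chromosome 19, 38930944 to 38933168, plus strand) and that of SARS2, the mitochondrial seryl-tRNA synthetase. MRPL30 and its partner MITD1 are shown for contrast, since neither side had a +1 position. The sequences are from hg38, written 5′ to 3′ on the strand of the MRP gene. None of the 3 motifs searched below lies wholly within these stretches, so they hold no capitals. The search window differs, running from 250 bp upstream to 50 bp downstream of the start. In that window MRPL50 had a match to GATGGCG, and MRPS12 and MRPL30 each had one to CCGGAAG.

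MRPL50, chr9:101398619-101398850, minus strand: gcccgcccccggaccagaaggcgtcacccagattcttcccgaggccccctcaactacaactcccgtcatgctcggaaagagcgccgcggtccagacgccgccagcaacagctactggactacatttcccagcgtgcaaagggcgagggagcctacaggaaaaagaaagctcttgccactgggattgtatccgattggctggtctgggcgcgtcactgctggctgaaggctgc

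MRPS12, chr19:38930764-38930943, plus strand: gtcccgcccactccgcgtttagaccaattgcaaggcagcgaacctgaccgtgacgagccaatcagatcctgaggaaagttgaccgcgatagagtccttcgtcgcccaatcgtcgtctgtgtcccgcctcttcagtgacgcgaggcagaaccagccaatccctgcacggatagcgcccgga

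MRPL30, chr2:99181059-99181183, plus strand: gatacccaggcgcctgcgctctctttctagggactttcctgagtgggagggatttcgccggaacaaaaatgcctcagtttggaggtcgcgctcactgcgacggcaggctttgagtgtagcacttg

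The DNA under the +1 position is shown next for 4 genes, as about the length of DNA that 1 nucleosome covers, centred on the listed base, with the middle of the stretch in capitals. They were picked to show +1 positions in an intron and in a coding exon. MRPL50 and MRPS18C had theirs in intron 1, at 150 and 133 bp from the start. MRPL44 and MRPL46 had theirs in coding exon 1, at 120 and 122 bp. GC content of these stretches was 47.6% for MRPL50, 49% for MRPS18C, 70.1% for MRPL44 and 67.3% for MRPL46. Among these 4 it thus ranged widely. The 4 do not stand for a contrast of introns with exons, since the stretch of MRPL57, also in intron 1, had 71.4%.

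MRPL50, chr9:101398395-101398541, minus strand: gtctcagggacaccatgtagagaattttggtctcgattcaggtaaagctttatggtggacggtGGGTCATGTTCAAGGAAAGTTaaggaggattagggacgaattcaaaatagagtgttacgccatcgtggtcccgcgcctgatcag

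MRPS18C, chr4:83456118-83456264, plus strand: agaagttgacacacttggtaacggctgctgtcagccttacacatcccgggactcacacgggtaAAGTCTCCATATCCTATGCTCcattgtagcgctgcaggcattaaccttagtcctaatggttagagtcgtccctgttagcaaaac

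MRPL44, chr2:223957510-223957656, plus strand: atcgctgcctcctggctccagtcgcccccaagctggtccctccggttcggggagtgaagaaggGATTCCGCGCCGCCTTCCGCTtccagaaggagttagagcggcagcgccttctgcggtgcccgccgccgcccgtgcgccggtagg

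MRPL46, chr15:88467193-88467339, minus strand: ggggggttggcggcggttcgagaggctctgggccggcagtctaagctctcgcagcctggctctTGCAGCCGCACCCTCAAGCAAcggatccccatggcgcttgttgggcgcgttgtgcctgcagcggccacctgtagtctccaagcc

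The +1 position was the main feature of these genes. A position 75 to 200 bp downstream of the start was listed for 43 of the 78, or 55.1% (95% Wilson interval 44.1 to 65.7%, which covers counting error only, as do all intervals here). Among the 51 genes whose start lies in a CpG island it was 27, or 52.9% (39.5 to 65.9%). Of the 6241 other island starts of genes of similar length (1377 to 42063 bp, the 10th to 90th percentile of the island members), 18.8% had one (17.8 to 19.8%), so the intervals did not overlap. The 41 island members within that length range had 22, or 53.7%. No test was made, because there is 1 list without replicates and genes are not replicates.

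Genes whose start lies outside an island, 27 in number, also often had one. A +1 position was listed for 16 of them, or 59.3% (40.7 to 75.5%), against 22.3% of 5080 other starts outside islands in the same length range. Their interval overlapped that of the island members. The offsets were 130 bp in MRPL15, 116 bp in MRPL42, 157 bp in MRPS10, 123 bp in MRPS14, 118 bp in MRPS18A and 143 bp in MRPS21, and the others ran from 85 to 184 bp. The 11 members outside islands without a +1 position were MRPL3, MRPL10, MRPL11, MRPL19, MRPL24, MRPL27, MRPL30, MRPL35, MRPL47, MRPL55 and MRPS35. MRPL55 had 4 positions, all upstream, at -811, -633, -464 and -261 bp, and MRPL24 had 1, at 453 bp. The islands were found in the hg38 sequence by length, GC and CpG content, and 65.4% of the MRP genes start in one, against 59.4% of 18113 other genes.

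Where a +1 position was listed, it lay at nearly the same distance. The 45 positions (2 genes had 2) ran from 85 to 185 bp, with a median of 131 bp and quartiles of 122 and 142 bp. The 28 in island members had a median of 130.5 bp with quartiles of 122 and 138.5 bp, and the 1232 of the comparison starts a median of 127 bp with quartiles of 111 and 140 bp. In 50-bp bins, density in island members was 9.02 positions per kb from 100 to 150 bp (95% exact Poisson interval 5.72 to 13.5), against 2.82 (2.64 to 3.02) at the comparison starts. From 50 bp upstream to the start, no position was listed for any member. The comparison starts had 0.0545 per kb there, inside the island members' interval of 0 to 1.45. Other starts outside islands had 1.03 per kb, inside the interval of 0 to 2.73 for members outside islands. The absence was thus not particular to these genes at these counts. The members nearest the limits of the window were MRPL48, just inside at 85 bp, and MRPS16, just outside at 74 bp. At the far limit MRPS36 lay inside at 185 bp and MRPL34 outside at 246 bp.

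**Figure D1:**
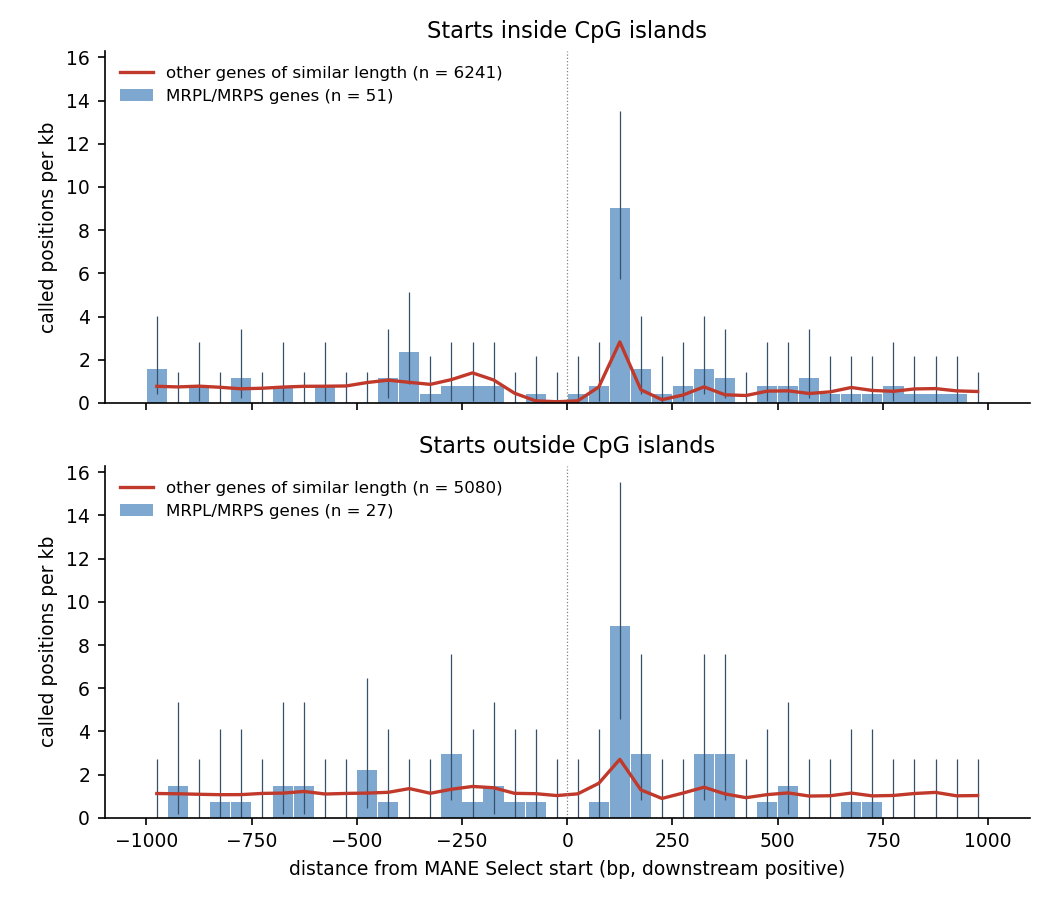
Called positions per kb in 50-bp bins from 1000 bp upstream to 1000 bp downstream of the start, for MRPL and MRPS genes (bars, with 95% exact Poisson intervals) and other genes of similar length (line), with starts inside islands above and outside islands below. The bin from 100 to 150 bp reaches 9.02 per kb in island members and 8.89 in members outside islands, and the line peaks in the same bin at 2.82 in the upper panel.

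The position fell on different parts of the genes. Of the 45, 24 were in intron 1, 16 in coding exon 1, 2 in coding exon 2 and 3 in the 5′ UTR of exon 1. The genes with a +1 in the first coding exon included MRPL44, whose protein has a ribonuclease III fold, MRPL58, a peptide release factor that frees stalled ribosomes, and MRPL15. Those with one in intron 1 included MRPS27, a pentatricopeptide repeat protein of the small subunit, MRPL45, which lies at the exit of the peptide tunnel, and MRPS14. Within the same window, the position thus met an intron in some genes and an exon in others. The split was not computed for the comparison starts, so it describes these genes only.

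Large and small subunit genes had the same share, 27 of 49 (55.1%, 41.3 to 68.1%) and 16 of 29 (55.2%, 37.5 to 71.6%). Within islands the large subunit had 18 of 30 (60%) and the small subunit 9 of 21 (42.9%), with intervals of 42.3 to 75.4% and 24.5 to 63.5% that overlapped. Symbols do not give the subunit exactly. MRPS30 and MRPS18A are known to sit in the large subunit, and MRPS36 is now known as a subunit of the 2-oxoglutarate dehydrogenase complex. MRPS18A had a +1 at 118 bp, MRPS36 one at 185 bp, and MRPS30 had no position from -1000 to +1000 bp.

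**Figure D2:**
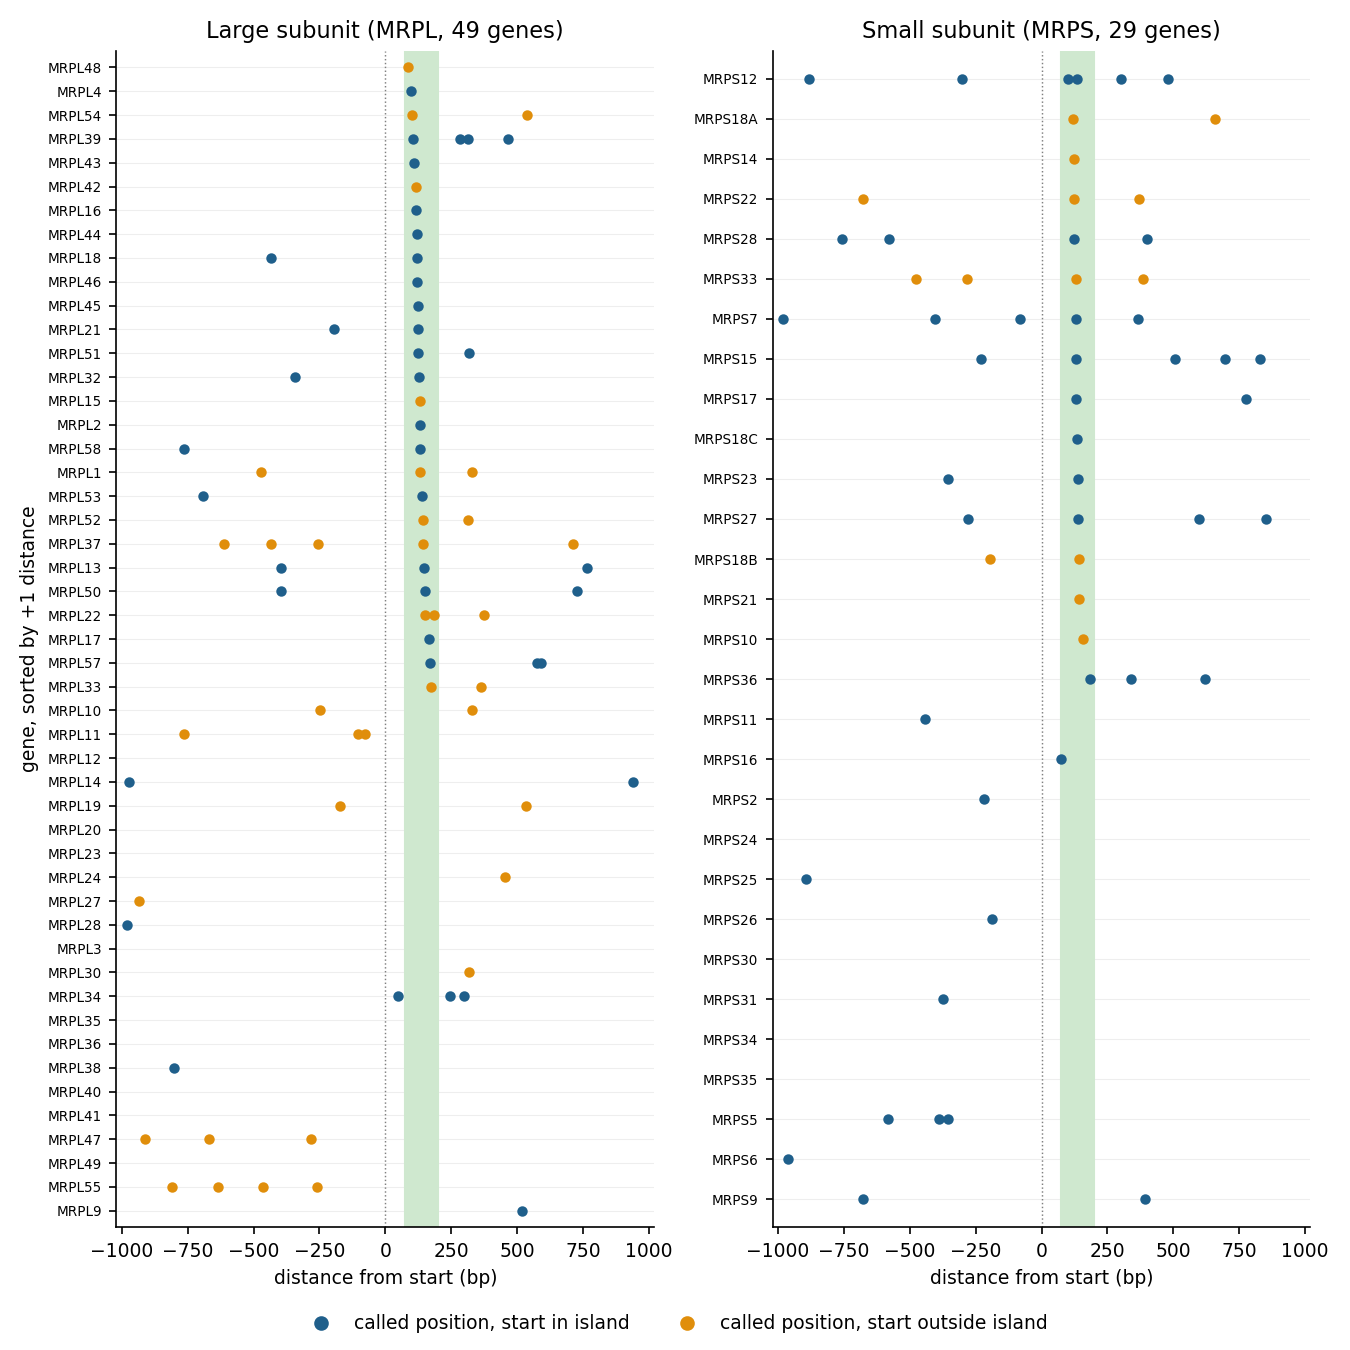
Every called position from 1000 bp upstream to 1000 bp downstream of the start, 1 row per gene, for the 49 MRPL genes (left) and the 29 MRPS genes (right), sorted by the distance of the +1 position; colour gives whether the start is in an island, and the green band marks 75 to 200 bp. The points in the band, whose limits define the +1 position, lie between 85 and 185 bp, and 13 rows hold no point.

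Composition differed between the members and the comparison starts, and it moved with the result. The GC content of the window from 75 to 200 bp had a median of 65.9% in island members and 71.4% in the comparison starts. Between 65 and 70% GC, 11 of 18 island members had a +1 position (61.1%) and 24.7% of 1379 comparison starts. Between 55 and 60% it was 7 of 9 (77.8%) against 26.1% of 379. Between 60 and 65% it was 4 of 9 (44.4%, 18.9 to 73.3%) against 30.9% of 742, and between 70 and 75% 2 of 5 (40%, 11.8 to 76.9%) against 17.5% of 1421, and both of these intervals take in the comparison. The 3 island members below 55% all had one. Of these, 1 lay below 45% GC (20.7 to 100%), against 5.41% of 37 comparison starts. The other 2 lay between 50 and 55% (34.2 to 100%), against 27.3% of 161. At 75% GC or more it was 0 of 7 members, which allows up to 35.4%, against 9.54% of 2075. Weighted to the members' GC content, the comparison share was 23%, still below the members' interval. The 43 genes with a +1 position had a median GC of 62.7% in this window and the 35 without one 68.3%.

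The share was also read by transcript length. In the bin from 6 to 12 kb, 8 of 11 island members had a +1 position (72.7%, 43.4 to 90.3%), against 18.9% of 1357 other island starts. In the bin from 3 to 6 kb it was 5 of 13 (38.5%, 17.7 to 64.5%) against 15.2% of 841. Among transcripts under 3 kb it was 6 of 12 (50%) against 14.6% of 528. From 12 to 24 kb it was 4 of 7 (57.1%) against 21.4% of 1859, from 24 to 48 kb 1 of 3 against 18.8% of 2175, and above 48 kb 3 of 5 against 13.8% of 4000. The members' share was the higher in each of the 6 bins, but the intervals overlapped from 3 to 6 kb, where the comparison's ran from 13 to 17.8%, and from 24 to 48 kb, where the members' ran from 6.15 to 79.2%. Weighted to the members' lengths, the comparison share was 16.8%.

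Other gene families of mitochondria and ribosomes were set beside them. Subunits of the nuclear respiratory chain, which work with the products of the mitochondrial ribosome, had a +1 position at 29 of 50 island starts (58%, 44.2 to 70.6%). Proteins of the cytosolic ribosome had it at 26 of 61 (42.6%, 31.0 to 55.1%). Both intervals overlapped that of the MRP genes, so a share of this size was not particular to the mitochondrial ribosome. Of the related lists, the enzymes that charge mitochondrial tRNAs had 13 of 20 over all starts (65%, 43.3 to 81.9%), mitochondrial translation factors 6 of 15 (40%), mitoribosome assembly factors 11 of 26 (42.3%), and mitoribosome proteins with other names 2 of 6. These lists were counted at starts in an island or not, unlike the 2 families before them. The comparison share over starts in an island or not was 20.4%.

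**Figure D3:**
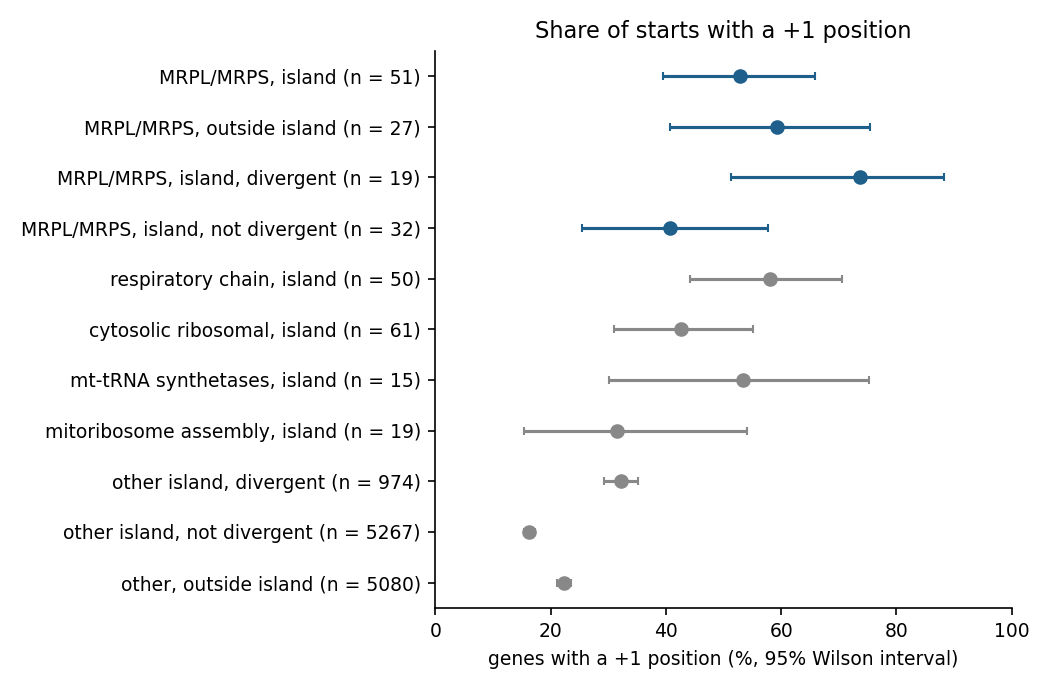
Share of genes with a called position 75 to 200 bp downstream of the start, with 95% Wilson intervals, for MRPL and MRPS genes (blue) and other groups (grey). The MRP groups lie between 40.6 and 73.7%, and the other genes of similar length at the bottom at 32.1, 16.3 and 22.3%.

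Shared promoters were common. A protein-coding gene on the opposite strand started within 1000 bp upstream of 26 of the 78 genes, and of 19 of the 51 in islands (37.3%, 25.3 to 51.0%), against 15.6% of the comparison starts. Several partners work in mitochondria too: TWNK, the helicase that unwinds mitochondrial DNA, lies beside MRPL43, SARS2 beside MRPS12, NDUFB5, a subunit of complex I, beside MRPL47, and PTCD2 beside MRPS27. FAU, which encodes a cytosolic ribosomal protein, lies beside MRPL49. Among island members with a partner 14 of 19 had a +1 position (73.7%, 51.2 to 88.2%), and among those without 13 of 32 (40.6%, 25.5 to 57.7%). Comparison starts showed the same order at lower levels, 32.1% of 974 with a partner and 16.3% of 5267 without. In both classes the members lay above the comparison.

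The 26 genes form 25 pairs, since MRPL46 and MRPS11 are each other's partner. Both genes had a +1 position in 8 pairs, 1 of the genes in 11 and neither in 6. Among the 19 island members with a partner both had one in 7 (36.8%), and among the 974 comparison starts with a partner in 11.7%. At MRPL21 and IGHMBP2, a helicase gene, the starts lie 59 bp apart, and positions were listed 125 bp into MRPL21 and 134 bp into IGHMBP2. At MRPL32 and PSMA2, a proteasome gene, the starts lie 202 bp apart and the positions were at 127 and 140 bp. The other pairs with both were MRPL13 with MTBP, MRPL37 with CYB5RL, MRPL50 with ZNF189, MRPS7 with GGA3, MRPS12 with SARS2 and MRPS27 with PTCD2. In each of these 8 genes 1 position upstream of the start was the partner's own +1: for MRPL50 the one at -394 bp lies 161 bp into ZNF189. MRPL37, MRPS7 and MRPS12 had further upstream positions that were not. A position between the starts was listed in 4 of the 25 pairs, and in 3 of 19 for island members (15.8%), against 15.8% of the comparison pairs, and 3 of those 4 had starts over 500 bp apart.

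MRPL46 and MRPS11 are the only pair of which both genes belong to the group. They lie head to head on chromosome 15 (88459478 to 88467388, minus strand, and 88467708 to 88480776, plus strand), with 320 bp between the starts. A position was listed 122 bp into MRPL46. It is the same position as the one at -442 bp from the start of MRPS11, which had none of its own within 1000 bp downstream.

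The stretch from -200 to +50 bp held few positions. Island members had 4 positions there in all, 0.314 per kb (0.0855 to 0.803), and the comparison starts 0.352 per kb (0.323 to 0.383). From 500 to 1000 bp either side, island members had 0.51 per kb, inside that interval, and the comparison starts 0.657. A position was listed for 4 of 51 island members (7.84%, 3.09 to 18.5%), against 8.49% of the comparison starts, so no difference was detectable at these counts. Of all 78 genes 7 had one. MRPL34 had a position at 49 bp and then at 246 and 297 bp. MRPS7, a protein of the small subunit's head, had one at -80 bp as well as a +1 at 130 bp. MRPL11, at the base of the ribosomal stalk, had a pair at -105 and -78 bp and no +1, and its start lies outside an island. The remaining 4 lay further up, at -173 bp in MRPL19, -187 bp in MRPS26, -193 bp in MRPL21 and -196 bp in MRPS18B. The position at MRPL21 is the +1 position of its partner IGHMBP2.

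Members outside islands had 0.593 positions per kb in this stretch (0.161 to 1.52), while other starts outside islands had 1.16 per kb (1.1 to 1.22). From 500 to 1000 bp either side these members had 0.444 per kb (0.23 to 0.776), against 1.1 at the other starts. The stretch was thus not seen to be barer than their own surroundings, which were sparse as well. With 4 positions the interval is wide and takes in the comparison value.

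A second position from 250 to 400 bp was listed for 8 of 51 island members (15.7%, 8.17 to 28.0%), against 7.26% of the comparison starts, with a lower bound near that value. Among the 41 island members within the length range it was 5 (12.2%, 5.32 to 25.5%), an interval that takes in the comparison. Outside islands it was 8 of 27 (29.6%, 15.9 to 48.5%), against 17% of the other starts there. Over all 78 genes it was 16, and 12 of these also had a +1 position. Both were listed for 6 of 51 island members (11.8%, 5.51 to 23.4%), against 2.84% of the comparison starts. Outside islands both were listed for 6 of 27 (22.2%, 10.6 to 40.8%), against 5.79%. These joint shares carry the higher +1 share given above. Counted among starts with a +1 position only, it was 6 of 27 island members and 177 of 1173 comparison starts. Outside islands it was 6 of 16 members and 294 of 1133 other starts. The distance between the listed +1 and the second position had a median of 193 bp in these 12 (range 153 to 275 bp) and of 192 bp in 177 comparison genes. MRPL51 had positions at 125 and 319 bp, 194 bp apart. MRPL1 had 133 and 329 bp and MRPL22 184 and 376 bp, and with MRPL33 these pairs stood 188 to 196 bp apart. MRPL39 (105 and 284 bp) and MRPL52 (141 and 315 bp) were closer, at 179 and 174 bp. MRPS36 (185 and 338 bp) was closest, at 153 bp, followed under this choice by MRPS12 (136 and 303 bp), at 167 bp. In MRPS7, MRPS22, MRPS33 and MRPS28 the distance was 236, 246, 255 and 275 bp, longer than in the other 8.

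The whole window from -1000 to +1000 bp held 136 positions over the 78 genes, 51 upstream and 85 downstream. The median was 1 per island member (quartiles 1 and 2) and 1 per comparison start (quartiles 0 and 2). No position was listed for 10 of 51 island members (19.6%, 11 to 32.5%), against 29.3% of the comparison starts, which lies inside that interval. The 13 genes with an empty window were MRPL3, MRPL12, MRPL20, MRPL23, MRPL35, MRPL36, MRPL40, MRPL41, MRPL49, MRPS24, MRPS30, MRPS34 and MRPS35. MRPL12, the stalk protein that also binds the mitochondrial RNA polymerase, and MRPL3, close to the peptidyl transferase centre, are among them.

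The fullest windows belonged to 4 genes. MRPS12, the homologue of the bacterial decoding-site protein S12, had 6 positions, at -883, -300, 102, 136, 303 and 478 bp. The pair within the +1 window lies closer together than the DNA of 1 nucleosome is long. MRPS15 had 5, at -228, 131, 506, 697 and 830 bp. MRPS7 had 5, at -981, -405, -80, 130 and 366 bp, and MRPL37 had 5, at -611, -435, -256, 142 and 712 bp. All 4 had a +1 position between 102 and 142 bp, against 55.1% of all members. That position itself counts towards the total by which they were ranked. Next came MRPL39, MRPL55, MRPS27, MRPS28 and MRPS33, with 4 each.

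Short sequences related to known factor motifs were searched from 250 bp upstream to 50 bp downstream of each start, on both strands: GCATGCG (the core of the NRF1 site), CCGGAAG (the core of sites for ETS factors) and GATGGCG (part of the YY1 site). NRF1 and ETS factors are known regulators of nuclear genes for mitochondrial proteins. CCGGAAG was found at 32 of 78 members, and at 18 of 51 in islands (35.3%, 23.6 to 49%), against 21% of the comparison starts and 14.1% of 18113 other starts. GATGGCG was found at 9 of 51 (17.6%, 9.57 to 30.3%), against 8.04 and 5.91%. GCATGCG was found at 4 of 51 (7.84%), against 7.19 and 5.03%. Members with CCGGAAG had a +1 position in 18 of 32 and those without it in 25 of 46, 56.2 and 54.3%. GCATGCG was found at 8 members in all, of which 7 had a +1 position, too few for an order. A match shows letters only, and factor binding was not measured.

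Gene bodies held fewer positions per kb than those of comparison genes, but the direction depended on composition and on the gene model. From 500 bp downstream to the end of the transcript, for transcripts over 1500 bp, island members had 523 positions, 0.704 per kb (0.645 to 0.767), and the comparison genes 0.898 per kb (0.893 to 0.904). With comparison genes weighted to the members' gene body GC content, their density was 0.676 per kb, inside the members' interval. With the 5′ ends of the annotated genes the members were the denser, at 1.00 against 0.904 per kb, and without MRPS22 in that setting they had 0.825 per kb. By transcript length, island members stood at 1.02 (0.83 to 1.23) against 0.912 per kb from 12 to 24 kb and below the other island genes in the other 5 bins. In the bin from 12 to 24 kb, MRPS11 alone held 30 of the members' 104 positions. The members' interval took in the comparison in that bin, under 3 kb (0.158 to 1.14 against 0.593) and from 24 to 48 kb (0.624 to 0.977 against 0.896). Against the density of the 1 Mb around each gene the members had 0.602 times what it predicts (0.552 to 0.656) and the comparison genes 0.824 times. Of 44 island members with a gene body of this length, 14 lay above the comparison median of 0.699 per kb. Respiratory chain genes in islands had 0.667 per kb and cytosolic ribosomal protein genes 0.368 per kb.

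Densities ranged widely between members. Among the 53 transcripts over 5 kb the densest was MRPS11, with 30 positions at 2.39 per kb, followed by MRPS18A (19 positions, 1.18 per kb) and MRPL15 (15 positions, 1.17 per kb). The least dense were MRPL52 and MRPL38, without a position in 4.65 and 5.74 kb, and MRPS10, with 2 positions at 0.189 per kb. MRPS11 lies in a dense stretch of chromosome 15, whose surrounding 1 Mb had 2.73 positions per kb against 0.928 over chromosomes 1-22. Its neighbour MRPL46 stood at 1.08 per kb in the same stretch. Across these 53 genes the density followed that of the surrounding 1 Mb, with Pearson's r = 0.60 and Spearman's rho = 0.43. Without the 2 genes on chromosome 15 they were 0.35 and 0.37. This is a description across genes, which share the list and its regional density.

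**Figure D4:**
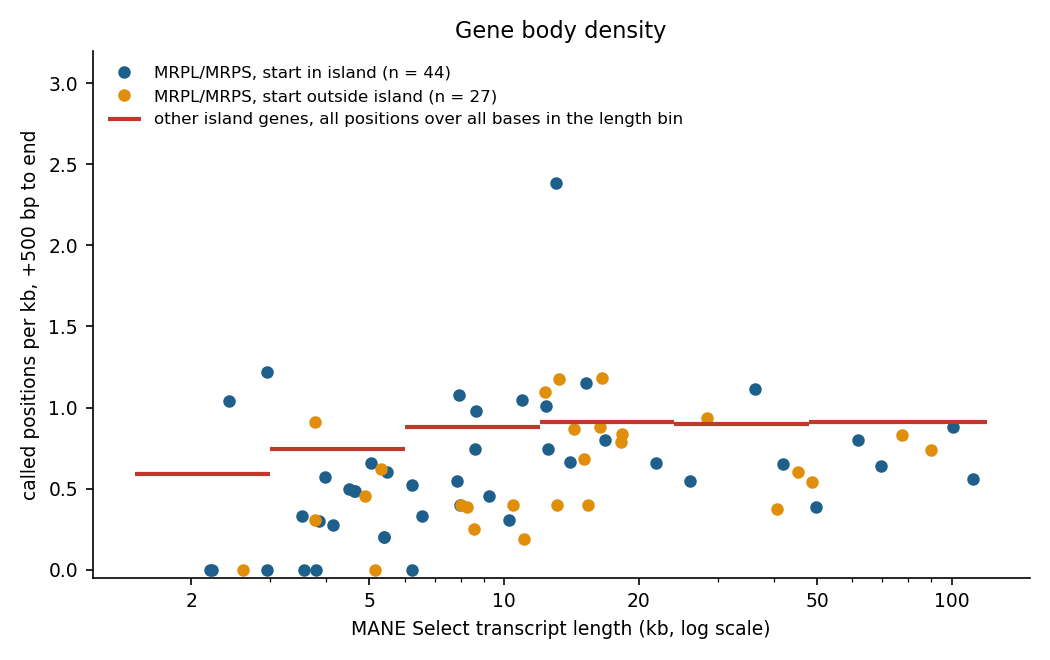
Called positions per kb from 500 bp downstream of the start to the transcript's end against transcript length (log scale) for 71 MRPL and MRPS genes over 1500 bp, with other island genes by length bin as horizontal lines. Of 44 island members 35 lie below the line of their length bin (79.5%), as do 62.2% of the other island genes themselves, and MRPS11 stands alone at 2.39 per kb.

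Among the longest members, MRPS28, at 111543 bp the longest of all, had 62 positions at 0.558 per kb, MRPS27 88 at 0.877 per kb and MRPL1 66 at 0.738 per kb. MRPL13 had 19 positions in 49.2 kb, or 0.386 per kb. At least 1 pseudogene named after it in GENCODE exists for 34 of the 78 genes, up to 8 for MRPS21, and reads from near-identical copies may be hard to place. The 31 such genes with a gene body of this length had 0.751 positions per kb (0.684 to 0.823) and the 40 without one 0.644 (0.584 to 0.707). The part of such copies in the result was not tested.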

How the data were processed

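The authors deposited 1 list of genome positions, 2634347 rows of 1 bp with no score, whose unit is a position and not a count of reads. Per the submitters' processing notes, Bowtie2 and hg38 were used. The name of the list carries the numbers 120 and 180, which no label explains. The caller, its threshold and the pooling of batches are not given in the sources used here. Starts were read as 0-based and converted to 1-based, and repeats were removed, which left 2558490 positions on chromosomes 1-22. Gene models came from GENCODE 44. CpG islands were scored along hg38 by adding 17 at a CpG and subtracting 1 elsewhere. A segment counted as an island when longer than 500 bp, with 55% GC or more and a CpG ratio, observed over expected, above 0.65. That gave 17238 islands. Of 70 symbols in the related gene lists, 67 matched. Counting was tested on simulated positions. No p-value was computed, since the list cannot be divided by batch.

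Genes named with values were the 5 with most positions from -1000 to +1000 bp (ties included), those with a position from -200 to +50 bp, those with both a +1 and a second position, the 3 highest and 3 lowest gene body densities above 5 kb, shared promoters, starts outside islands and empty windows. Others were named after their values were seen. The members, lists and windows were chosen with earlier results of these data known. Software was Python 3.11.15 with pandas 2.3.3, numba 0.67.0, numpy 2.4.6 and scipy 1.17.1.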

Additional observations from a re-analysis of the deposited data

How the results depend on the processing

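For 3 results (the +1 share, the density from -200 to +50 bp and the gene body density of island members), 31 alternatives were computed, 24 of them planned and 7 added after seeing the data. The added ones weighted the comparison by GC content or left out genes with a divergent partner or the 5 longest, or MRPS22 as below. The members' value stayed within the interval given above in 26, of which 5 change the comparison alone and so leave it as it was. The +1 share ran from 40.6% (without divergent partners, 16.3% in the comparison) to 55.1% (all members), and the comparison share from 15.9 to 23%. With the 5′ ends of the annotated genes it was 44.9% against 17.6%, and the density from -200 to +50 bp was then 0.653 per kb, above the comparison's 0.426 rather than below it. Gene body density left its interval in 5. It was 1.00 per kb with the 5′ ends of the annotated genes, and the comparison was then lower, at 0.904. MRPS22, with an annotated span of 354692 bp, held 497 of the positions in that setting, and without it the value was 0.825, below the comparison but still outside the interval. It was 0.638 per kb with positions closer than 100 bp merged, 0.559 when scaled by the surrounding 1 Mb and 0.553 as the median over genes, below the comparison each time. No paired analysis was possible because the list has no column per batch, and for the same reason neither batch could be left out. Depth is unknown, so a stretch without a listed position may hold a nucleosome that was not called.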
